A study of Mus musculus with 6 samples.

Results

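The genes described here encode the axon guidance ligands and their receptors: the semaphorins with plexins and neuropilins, the ephrins with Eph receptors, the Slits with Robos, and the netrins with Unc5 receptors. They were chosen by name among protein-coding mouse genes, which gave 68 genes in 9 families, of which 59 were among the 22032 genes of the deposited table and 9 were not analysed here. RNA was sequenced from mDE6, a mouse cell line, carrying a short hairpin RNA against Arl4c, which encodes a small GTPase related to the ARF proteins (shArl4c, 3 libraries), or a control hairpin (shControl, 3 libraries). The labels state neither the tissue of origin of the line, nor its age or strain, nor a drug or time point, nor separate cultures behind the libraries of a group. The p-values therefore measure only how far these libraries spread, and that spread may be technical. The loss of Arl4c cannot be told apart from anything else that its hairpin did, since the labels separate 1 Arl4c hairpin group. The libraries are named by the numbers in the deposited table, shArl4c 2, 3 and 4 and shControl 1, 2 and 3, and the values of a group follow the library numbers.

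Guidance cues were named for steering growing axons, and the same families act in many other tissues on cell adhesion, migration, vessel growth and the shaping of the skeleton. Semaphorins are secreted or membrane-bound ligands that signal through plexins, with neuropilins as co-receptors for most secreted ones. Ephrins are membrane-bound ligands whose binding to Eph receptor tyrosine kinases signals into both contacting cells. Slits are large secreted proteins recognised by Robo receptors, and netrins are laminin-related proteins recognised by receptors that include the Unc5 proteins.

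Levels are in CPM, read counts scaled by the authors to a common library size. The libraries held 12316770 to 14976113 reads, so that 1 read was worth 0.0672 to 0.0827 CPM. Genes averaging 1 CPM or more across the 6 libraries were tested with limma on log2(CPM + 1), a scale on which changes of low genes come out too small, and a gene is said to rise, fall or change where its p adjusted by the method of Benjamini and Hochberg over all 14740 tested genes was under 0.05. Arl4c itself stood at 6.75, 7.42 and 6.89 CPM in the shArl4c libraries, against 20.7, 21.05 and 20.1 CPM in the shControl libraries. Library shArl4c 3 stood apart from its group: the chi-square per degree of freedom over genes was 5.74 and 4.87 against shArl4c 2 and 4, which differed from each other by 1.54, and it was 1.78 to 2.30 within shControl. Of 6 lists of 10 cell type markers each, the mesenchymal one summed to 18951 to 19818 CPM in shArl4c and 31598 to 33019 CPM in shControl. Its 9 tested members included 2 that rose and 5 that fell (77.8% called, against 36.9% of all tested genes). Most of the sum was Col1a1 (10139 CPM in shArl4c, 17787 CPM in shControl) and Col1a2 (5240 CPM in shArl4c, 9443 CPM in shControl). Pdgfra and Pdgfrb rose, and Vim (2444 CPM in shArl4c, 2543 CPM in shControl) and Twist1 did not pass. The sum therefore does not describe the list as a whole. Levels of the other marker lists were low: 3 of the 10 neuron markers were listed and summed to 5.13 to 5.55 CPM in shArl4c and 11.2 to 11.9 CPM in shControl, and 5 of the 10 endothelial markers were listed and summed to 9.49 to 9.66 CPM in shArl4c and 8.41 to 10.3 CPM in shControl. Likewise, 6 of the 10 glial markers were listed and summed to 5.996 to 6.43 CPM in shArl4c and 5.45 to 6.27 CPM in shControl, 9 of the 10 leukocyte markers were listed and summed to 9.44 to 10.9 CPM in shArl4c and 7.12 to 8.64 CPM in shControl, and 8 of the 10 epithelial markers were listed and summed to 1.99 to 3.63 CPM in shArl4c and 1.48 to 2.32 CPM in shControl. The epithelial cadherin gene Cdh1 had no read in any shArl4c library, against 0.295, 0.336 and 0.331 CPM in the shControl libraries. Krt19 of the same list went the other way, with a mean of 0.765 CPM in shArl4c and 0.122 CPM in shControl. No epithelial marker reached the filter. Of the few tested genes of these other lists, both neuron markers fell (Tubb3 to 4.75 CPM in shArl4c, against 8.83 CPM in shControl, and Nefm to 0.523 CPM in shArl4c, against 2.54 CPM in shControl) and 1 of 3 leukocyte markers rose (Cd68 to 5.77 CPM in shArl4c, against 2.79 CPM in shControl). Nefm reached the filter through shControl alone, so that a difference was a condition of its being tested. The part of other cell types in the results was not tested.

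Of the 59 listed guidance genes, 49 passed the filter on low values. Among these, 16 rose, 15 fell and 18 did not pass the test, so that 63.3% were called, where 36.9% of all tested genes were (18.9% higher and 18% lower). The median log2 fold change was 0.01 for the guidance genes and 0.01 for all tested genes, and the median size of change, sign left aside, was 0.25 for the guidance genes and 0.15 for all tested genes. Changes of at least 2-fold in mean CPM were called in 4 genes that rose and 6 that fell, or 20.4% of the tested guidance genes, against 5.43% of all tested genes (1.98% higher and 3.45% lower). The groups did not overlap in 32 of the 49, or 65.3%, against 46.8% of all tested genes. Sema4a, Sema6b and Sema6d reached the filter through 1 group alone and so had to differ. Of the other 46 genes, at 1 CPM or more in both groups, 14 rose and 14 fell (60.9% called), 7 were called with a change of at least 2-fold (2 higher and 5 lower, 15.2%), and 29 had groups that did not overlap (63%). Over all 14237 tested genes at 1 CPM or more in both groups, these shares were 36.5%, 4.02% and 46.2%. In each family the count of calls is read against the 36.9% of all tested genes, and groups that do not overlap against the 46.8%. Without shArl4c 3, 16 rose and 16 fell.

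**Figure D1:**
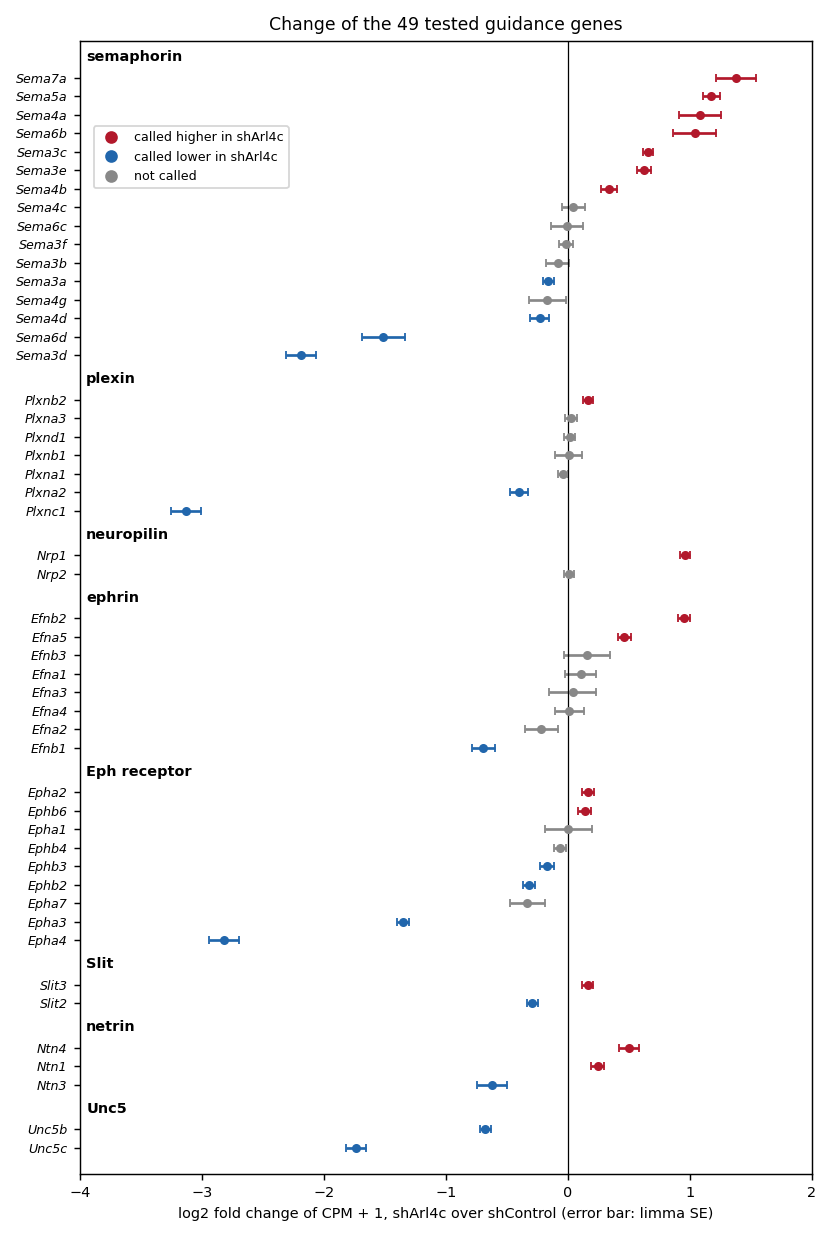
Log2 fold change of CPM + 1, shArl4c over shControl (x axis), for the 49 tested guidance genes, listed by family from the largest rise to the largest fall; points are estimates, bars are limma standard errors (n = 3 libraries per group), and colour marks the call. The changes run from -3.13 for Plxnc1 to 1.38 for Sema7a, with rises and falls side by side in most families.

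On the scale of log2(CPM + 1), the 2 largest falls were of Plxnc1 and Epha4 and the 2 largest rises of Sema7a and Sema5a. The order depends on the pseudocount: with 0.5 in place of 1, the low genes Sema4a (1.40) and Sema6b (1.31), described below, rose more than Sema5a (1.20), as they did in mean CPM (4.04-fold, 3.57-fold and 2.33-fold higher in this order). Sema6d, with too few reads in shArl4c for a fold, is not ranked in mean CPM. Plxnc1 (ENSMUSG00000074785), encoding the plexin that binds the ligand of the Sema7a gene, stood at 2.396, 1.57 and 2.37 CPM in the shArl4c libraries, against 25.8, 27.4 and 25.2 CPM in the shControl libraries. It was 12.4-fold lower in shArl4c (log2 fold change -3.13 with SE 0.12, adjusted p = 1.84e-13 by limma). Sema7a (ENSMUSG00000038264), encoding a semaphorin tied to the membrane by a lipid anchor, moved the other way, at 4.36, 5.02 and 5.05 CPM in the shArl4c libraries, against 1.11, 1.75 and 0.9101 CPM in the shControl libraries. It was 3.83-fold higher (log2 fold change 1.38 with SE 0.16, adjusted p = 1.58e-06 by limma), and all shArl4c values lay above all shControl values. In this ligand and receptor pair the receptor mRNA was therefore the more abundant of the pair per length in shControl (Plxnc1 at 3.58 and Sema7a at 0.381 CPM per kb of transcript) and the ligand mRNA in shArl4c (Plxnc1 at 0.2895 and Sema7a at 1.46 CPM per kb). Epha4 (ENSMUSG00000026235), encoding a receptor that binds ephrins of both classes, stood at 1.38, 1.87 and 1.53 CPM in the shArl4c libraries, against 16.02, 18.1 and 17.7 CPM in the shControl libraries, 10.8-fold lower in shArl4c (log2 fold change -2.82 with SE 0.13, adjusted p = 1.39e-12 by limma). Sema5a (ENSMUSG00000022231), encoding a membrane semaphorin with thrombospondin repeats, stood at 50.2, 46.9 and 43.9 CPM in the shArl4c libraries, against 19.6, 21.2 and 19.9 CPM in the shControl libraries, 2.33-fold higher (log2 fold change 1.18 with SE 0.07, adjusted p = 5.85e-11 by limma). In bulk RNA, fewer cells that express a gene and less RNA per cell cannot be told apart.

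The promoters of these 4 genes are shown because they carry the largest changes in each direction on the scale of log2(CPM + 1). Each line holds 250 bases before and 50 bases after the annotated start, from RefSeq on GRCm38.p6, an older build than the GRCm39 of the deposited table, read 5′ to 3′ on the gene's strand. Capitals mark the GC box GGGCGG or its reverse complement CCGCCC, and the CCAAT box CCAAT or its reverse complement ATTGG. The windows lie at chr10:94944796-94945095 on the minus strand for Plxnc1, chr1:77515039-77515338 on the minus strand for Epha4, chr15:32244563-32244862 on the plus strand for Sema5a and chr9:57939862-57940161 on the plus strand for Sema7a.
Plxnc1: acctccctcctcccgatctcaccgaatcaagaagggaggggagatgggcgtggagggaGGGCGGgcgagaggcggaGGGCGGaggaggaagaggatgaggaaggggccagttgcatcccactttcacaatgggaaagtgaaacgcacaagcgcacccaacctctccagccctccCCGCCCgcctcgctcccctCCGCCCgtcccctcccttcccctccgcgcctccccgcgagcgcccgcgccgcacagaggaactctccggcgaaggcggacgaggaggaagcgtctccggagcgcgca
Epha4: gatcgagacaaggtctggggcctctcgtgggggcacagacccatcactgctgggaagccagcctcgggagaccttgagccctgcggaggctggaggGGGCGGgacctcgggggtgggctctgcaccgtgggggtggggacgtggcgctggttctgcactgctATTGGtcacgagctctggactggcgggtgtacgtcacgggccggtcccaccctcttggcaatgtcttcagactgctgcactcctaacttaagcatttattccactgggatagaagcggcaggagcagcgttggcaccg
Sema5a: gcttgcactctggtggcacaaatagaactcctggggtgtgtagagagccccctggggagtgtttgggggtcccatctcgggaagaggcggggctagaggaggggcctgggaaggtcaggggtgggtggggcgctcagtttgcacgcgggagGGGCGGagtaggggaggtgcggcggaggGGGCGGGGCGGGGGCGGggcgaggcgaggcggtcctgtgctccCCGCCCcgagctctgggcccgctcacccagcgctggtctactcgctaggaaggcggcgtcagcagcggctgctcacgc
Sema7a: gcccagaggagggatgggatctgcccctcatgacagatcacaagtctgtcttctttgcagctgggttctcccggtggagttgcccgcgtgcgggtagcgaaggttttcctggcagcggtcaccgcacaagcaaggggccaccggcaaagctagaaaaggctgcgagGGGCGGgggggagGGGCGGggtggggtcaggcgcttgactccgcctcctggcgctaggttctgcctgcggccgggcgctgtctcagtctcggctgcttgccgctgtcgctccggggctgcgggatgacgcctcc
All 4 windows hold a GC box, with 4 matches in Plxnc1, 1 in Epha4, 5 in Sema5a (overlapping matches counted) and 2 in Sema7a, and Epha4 also holds a CCAAT box. None of the 4 holds TATAAA or its reverse complement TTTATA. Their GC content was 69.0%, 64.0%, 71.3% and 67.3% in the order printed. Promoters in the RefSeq table matched 51 of the 59 listed guidance genes by symbol, some with several starts (67 windows). Of these windows 73.1% held the GC box, against 35.7% of 32851 windows of all genes, 2.99% held TATAAA, against 13.6%, and 26.9% held CCAAT, against 37.4%, both strands searched. The letters GGAATG of TEAD factors, or CATTCC, were in 13.4% of windows of guidance genes and 14.7% of all windows, and TGACTCA of AP-1, or TGAGTCA, in 2.99% of windows of guidance genes and 5.20% of all windows. The median GC content was 64.7% for the guidance genes and 52.7% for all windows. Among guidance genes that changed by at least 0.5 on the log2 scale, the GC box was in 11 of 12 windows of the 8 genes that rose. It was in 5 of 10 windows of the 9 genes that fell, and in 79.3% of windows of all tested guidance genes. Windows of 1 gene are not separate units. These shares are descriptions and were not tested, and a match of letters is neither a binding site nor a cause.

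**Figure D2:**
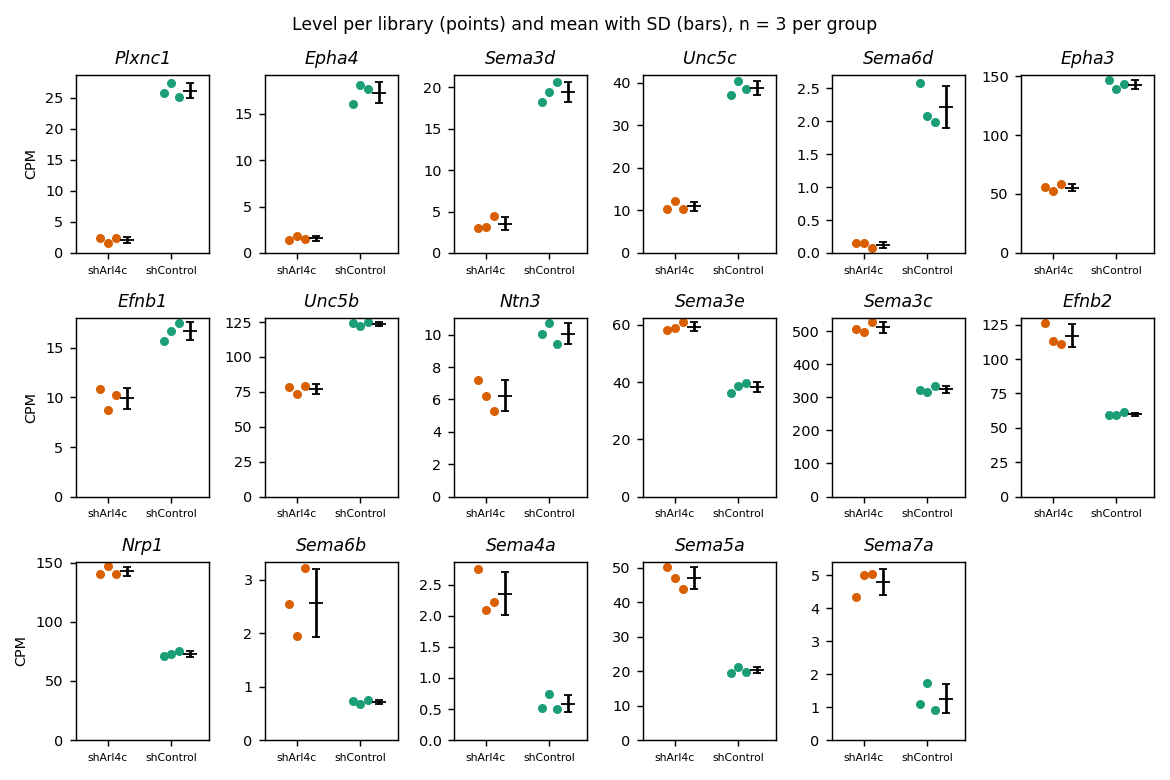
CPM (y axis, from 0) in each library for the 17 guidance genes that changed by at least 0.5 on the log2 scale, shArl4c left of shControl; points are libraries and bars are the mean with its SD (n = 3). The groups do not overlap in any panel. The genes were picked by their call and size of change, so this is no separate result (46.8% of all tested genes did not overlap). Plxnc1 stands at 1.57 to 2.40 CPM in shArl4c and at 25.2 to 27.4 CPM in shControl.

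Semaphorins are the largest of these families. Of 16 tested, 7 rose, 4 fell and 5 did not pass, and of the 13 at 1 CPM or more in both groups 5 rose, 3 fell and 5 did not pass (61.5% called, against 36.5% of all tested genes held to that level). Among the secreted class 3 semaphorins, the ligands that use neuropilins, Sema3c and Sema3e rose while Sema3d fell. Sema3c, which guides neural crest cells in the heart, was the most abundant semaphorin per length in both groups. It stood at 507, 499 and 529 CPM in the shArl4c libraries, against 322, 316 and 335 CPM in the shControl libraries, 1.58-fold higher in shArl4c (log2 fold change 0.66 with SE 0.04, adjusted p = 1.83e-10 by limma). Sema3e, which binds the plexin of the Plxnd1 gene without a neuropilin, stood at 58.4, 58.8 and 61.1 CPM in the shArl4c libraries, against 36.3, 38.5 and 39.7 CPM in the shControl libraries, 1.56-fold higher (log2 fold change 0.63 with SE 0.06, adjusted p = 3.01e-08 by limma). Every shArl4c library was above every shControl library for both genes, where 46.8% of all tested genes had groups that did not overlap. Sema3d stood at 2.98, 3.15 and 4.44 CPM in the shArl4c libraries, against 18.2, 19.4 and 20.6 CPM in the shControl libraries, 5.51-fold lower (log2 fold change -2.19 with SE 0.12, adjusted p = 4.76e-11 by limma). Its neighbour on the chromosome among RefSeq's protein-coding genes (GRCm38.p6), Sema3a, which encodes the repellent that collapses growth cones, fell by 0.16 on the log2 scale (adjusted p = 0.00742 by limma), with means of 99.9 ± 2.398 CPM in shArl4c and 112 ± 3.65 CPM in shControl (SD, n = 3). The adjusted p of Sema3a was 0.0508 without shControl 3 and 0.0532 by limma without trend and robust moderation, here called plain limma. Sema3b (-0.08) and Sema3f (-0.02) did not pass the test.

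The membrane semaphorins also went both ways. Sema4a, encoding a semaphorin best known from immune cells, stood at 2.76, 2.099 and 2.22 CPM in the shArl4c libraries, against 0.517, 0.7397 and 0.496 CPM in the shControl libraries (log2 fold change 1.08 with SE 0.17, adjusted p = 4.67e-05 by limma). Sema6b, encoding a transmembrane ligand of A-type plexins, stood at 2.54, 1.95 and 3.21 CPM in the shArl4c libraries, against 0.738, 0.672 and 0.745 CPM in the shControl libraries (log2 fold change 1.04 with SE 0.17, adjusted p = 9.45e-05 by limma). Both were low genes that passed the filter only through their shArl4c level, as Sema6d did through its shControl level, so that a difference was a condition of their being tested, and their calls and their groups without overlap are descriptions. Sema6d, another ligand of A-type plexins, stood at 0.145, 0.1499 and 0.0765 CPM in the shArl4c libraries, against 2.58, 2.08 and 1.99 CPM in the shControl libraries (log2 fold change -1.51 with SE 0.18, adjusted p = 1.14e-06 by limma). Its shArl4c values rest on 5 reads in all, each library lying under the 0.218 to 0.230 CPM that 3 reads make there, so no fold is given. Sema4b rose to 39.2 ± 1.799 CPM in shArl4c, against 30.9 ± 1.47 CPM in shControl (log2 fold change 0.34, adjusted p = 2.90e-04 by limma). Sema4d, the ligand of the Plxnb1 receptor, averaged 21.1 ± 0.386 CPM in shArl4c and 25.04 ± 2.46 CPM in shControl (log2 fold change -0.23, adjusted p = 0.02496 by limma). The call of Sema4d was lost without shControl 1 (adjusted p = 0.0975), shControl 2 (0.158), shArl4c 2 (0.0516) or shArl4c 4 (0.0755), and also with library totals (0.0529), by plain limma (0.0668) and by DESeq2 (0.0862). Sema4c (0.05), Sema4g (-0.17) and Sema6c (-0.01) did not pass. Without shArl4c 3, Sema4g passed as lower (adjusted p = 0.03902).

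Set per length of the longest coding transcript, the 19 listed semaphorins summed to 166, 163 and 172 CPM per kb in the shArl4c libraries, against 127, 129 and 132 CPM per kb in the shControl libraries. The shArl4c sums were all above the shControl sums, a difference that lay largely in Sema3c (93.2 CPM per kb in shArl4c, 59.04 in shControl). Sema3c made up 55.8% in shArl4c and 45.7% in shControl of that sum. The other 2 leading semaphorins were Sema3a, with 10.1% in shArl4c and 14.6% in shControl, and Sema3f, with 9.002% in shArl4c and 11.8% in shControl. Sema3d supplied 0.334% in shArl4c and 2.38% in shControl, and its rank among the 19 was 15 in shArl4c and 9 in shControl.

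Among plexins, the semaphorin receptors, the largest changes were those of Plxnc1, given above, and Plxna2. Of 7 tested, 1 rose, 2 fell and 4 did not pass (42.9% called, near the 36.9% of all tested genes). Plxnb2, a receptor of class 4 semaphorins and the most abundant plexin per length, stood at 886, 849 and 908 CPM in the shArl4c libraries, against 764, 781 and 811 CPM in the shControl libraries, 1.12-fold higher in shArl4c (log2 fold change 0.17 with SE 0.04, adjusted p = 0.00339 by limma). Its call was lost by plain limma (adjusted p = 0.0562). Plxna2, a receptor used with neuropilins and by class 6 semaphorins, stood at 26.1, 32.005 and 31.1 CPM in the shArl4c libraries, against 38.4, 40.7 and 39.1 CPM in the shControl libraries, 1.33-fold lower (log2 fold change -0.40 with SE 0.07, adjusted p = 2.19e-04 by limma). Plxna1 averaged 526 ± 3.73 CPM in shArl4c and 543 ± 21.1 CPM in shControl and did not pass (log2 fold change -0.04, adjusted p = 0.456 by limma). Plxna3 (0.03), Plxnb1 (0.01) and Plxnd1 (0.01) did not pass either. Per length, Plxnb2 and Plxna1 together held most of the plexin sum: Plxnb2 made up 61.3% in shArl4c and 56.98% in shControl and Plxna1 26.3% in shArl4c and 28.3% in shControl. Plxnc1 made up 0.131% in shArl4c and 1.69% in shControl. The summed plexin level was 221, 216 and 226 CPM per kb in the shArl4c libraries, against 205, 213 and 218 CPM per kb in the shControl libraries, and here the ranges overlapped.

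Neuropilins bind class 3 semaphorins and also vascular endothelial growth factor, and only Nrp1 of the pair passed the test. Nrp1 stood at 141, 147 and 141 CPM in the shArl4c libraries, against 70.7, 72.8 and 75.2 CPM in the shControl libraries, 1.96-fold higher in shArl4c (log2 fold change 0.96 with SE 0.04, adjusted p = 2.64e-12 by limma). Nrp2, which prefers other class 3 semaphorins, stood at 209.8, 220.1 and 219.6 CPM in the shArl4c libraries, against 218, 211 and 218 CPM in the shControl libraries, with overlapping groups (log2 fold change 0.01 with SE 0.04, adjusted p = 0.911 by limma). In CPM, Nrp2 was above Nrp1 in both groups. Per length the order of the pair differed between the groups, which rests on the lengths used (Nrp1 3.597 kb, Nrp2 6.723 kb). Nrp1 was at 39.7 CPM per kb in shArl4c and 20.3 in shControl, and Nrp2 at 32.2 CPM per kb in shArl4c and 32.03 in shControl. Nrp1 thus made up 55.2% in shArl4c and 38.8% in shControl of the neuropilin sum.

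Among ephrins, 2 of the 8 tested rose, 1 fell and 5 did not pass (37.5% called, near the 36.9% of all tested genes), a count that is no result about the family. Efnb2, a marker of arteries and the ligand of the Ephb4 receptor, was the most abundant ephrin per length and stood at 126, 113 and 111 CPM in the shArl4c libraries, against 58.98, 59.3 and 61.1 CPM in the shControl libraries, 1.95-fold higher in shArl4c (log2 fold change 0.95 with SE 0.05, adjusted p = 2.77e-11 by limma). Efnb1, whose mutations in humans cause craniofrontonasal syndrome, stood at 10.8, 8.77 and 10.3 CPM in the shArl4c libraries, against 15.7, 16.7 and 17.5 CPM in the shControl libraries, 1.68-fold lower (log2 fold change -0.69 with SE 0.10, adjusted p = 1.03e-05 by limma). These relatives of the transmembrane ephrin-B class thus moved in opposite directions, each with groups that did not overlap, as for 46.8% of all tested genes. Efna5, a lipid-anchored ligand of EphA receptors, averaged 54.6 ± 1.21 CPM in shArl4c and 39.4 ± 0.223 CPM in shControl, 1.39-fold higher (log2 fold change 0.46 with SE 0.05, adjusted p = 1.03e-06 by limma). Efna1 (0.10), Efna2 (-0.22), Efna3 (0.04), Efna4 (0.01) and Efnb3 (0.16) did not pass. Efna1, Efna3 and Efna4 follow one another on the chromosome in RefSeq's order. Efna3, at 1.095 CPM over all libraries, was the guidance gene nearest above the filter, and Epha8, at 0.889 CPM, the nearest below it. Efna3 and Efna4 share 14.1% and 10.5% of their exon bases with transcripts on the opposite strand in GENCODE M21, as Plxna1 (10.7%) and Sema4c (7.27%) do, and the sources used here do not state whether counting used the strand.

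Of 9 tested Eph receptor genes, 2 rose, 4 fell and 3 did not pass (66.7% called, against 36.9% of all tested genes). Epha3, a receptor of ephrin-A ligands found on mesenchymal cells, stood at 55.6, 52.3 and 58.2 CPM in the shArl4c libraries, against 146, 139 and 143 CPM in the shControl libraries, 2.58-fold lower in shArl4c (log2 fold change -1.35 with SE 0.05, adjusted p = 6.31e-14 by limma). Epha3 and Epha4 were the only Eph genes called with a change of at least 2-fold. Epha2, the most abundant Eph gene per length in both groups, stood at 127, 115 and 123 CPM in the shArl4c libraries, against 103, 113 and 108 CPM in the shControl libraries (log2 fold change 0.16 with SE 0.05, adjusted p = 0.0131 by limma). Epha7 averaged 3.41 ± 0.462 CPM in shArl4c and 4.56 ± 0.542 CPM in shControl and did not pass (log2 fold change -0.33, adjusted p = 0.0799 by limma), although its groups did not overlap. Without shArl4c 3, Epha7 passed as lower (adjusted p = 0.0205). Epha1 (0.00) did not pass; it shares 6.01% of its exon bases with Zyx on the opposite strand, a gene of far higher level. The call of Epha2 was lost without shControl 1 (adjusted p = 0.0961), shArl4c 2 (0.0699) or shArl4c 4 (0.0536), and also by plain limma (0.09499) and by DESeq2 (0.05395).

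Changes in the EphB class, whose main ligands are the ephrin-B proteins, were small. Ephb2 stood at 80.3, 72.9 and 75.99 CPM in the shArl4c libraries, against 92.7, 96.6 and 97.1 CPM in the shControl libraries, 1.25-fold lower (log2 fold change -0.32 with SE 0.05, adjusted p = 3.15e-05 by limma). Ephb3 averaged 58.8 ± 4.102 CPM in shArl4c and 66.4 ± 3.03 CPM in shControl (log2 fold change -0.17, adjusted p = 0.0241 by limma). Ephb6, a member without kinase activity, averaged 57.3 ± 1.38 CPM in shArl4c and 52.1 ± 1.25 CPM in shControl (log2 fold change 0.14, adjusted p = 0.0431 by limma). Ephb4 averaged 70.5 ± 2.69 CPM in shArl4c and 73.7 ± 2.995 CPM in shControl and did not pass (-0.06). The call of Ephb3 was lost without shControl 2 (adjusted p = 0.105), shControl 3 (0.112) or shArl4c 3 (0.0604), and also by plain limma (0.111) and by DESeq2 (0.0682). That of Ephb6 was lost without shControl 1 (adjusted p = 0.157), shControl 2 (0.0895), shControl 3 (0.0675), shArl4c 2 (0.0817) or shArl4c 4 (0.157), and was kept without shArl4c 3. It was also lost with no filter on low values (0.06701), with median of ratios (0.05598), by plain limma (0.0767), by edgeR (0.0594) and by DESeq2 (0.213), so that Ephb6 was called in 6 of 16 alternatives.

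Summed per length, the ephrins were higher in shArl4c and the Eph receptors lower, differences that lay largely in a few genes. Efnb2 was at 24.4 CPM per kb in shArl4c and 12.5 in shControl, and Epha3 at 9.78 in shArl4c and 25.2 in shControl. Of the 8 ephrins, 5 did not pass and Efnb1 fell, and among the Eph genes Epha2 and Ephb6 rose. The 8 ephrins summed to 56.03, 52.7 and 54.5 CPM per kb in the shArl4c libraries, against 39.9, 41.8 and 40.05 CPM per kb in the shControl libraries. The 11 listed Eph receptors summed to 95.9, 89.4 and 94.8 CPM per kb in the shArl4c libraries, against 108, 112 and 112 CPM per kb in the shControl libraries. Neither pair of ranges overlapped. By class, the ephrin-B sum was 30.1, 27.02 and 26.8 CPM per kb in the shArl4c libraries, against 17.5, 17.9 and 18.7 CPM per kb in the shControl libraries. The EphA sum was 43.6, 40.7 and 43.1 CPM per kb in the shArl4c libraries, against 56.6, 58.1 and 57.2 CPM per kb in the shControl libraries. The EphB sum overlapped between the groups, at 50.9 ± 1.896 CPM per kb in shArl4c and 53.6 ± 1.88 CPM per kb in shControl (SD, n = 3). Epha3 made up 10.5% in shArl4c and 22.7% in shControl of the Eph sum and ranked 5 in shArl4c and 2 in shControl.

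**Figure D3:**
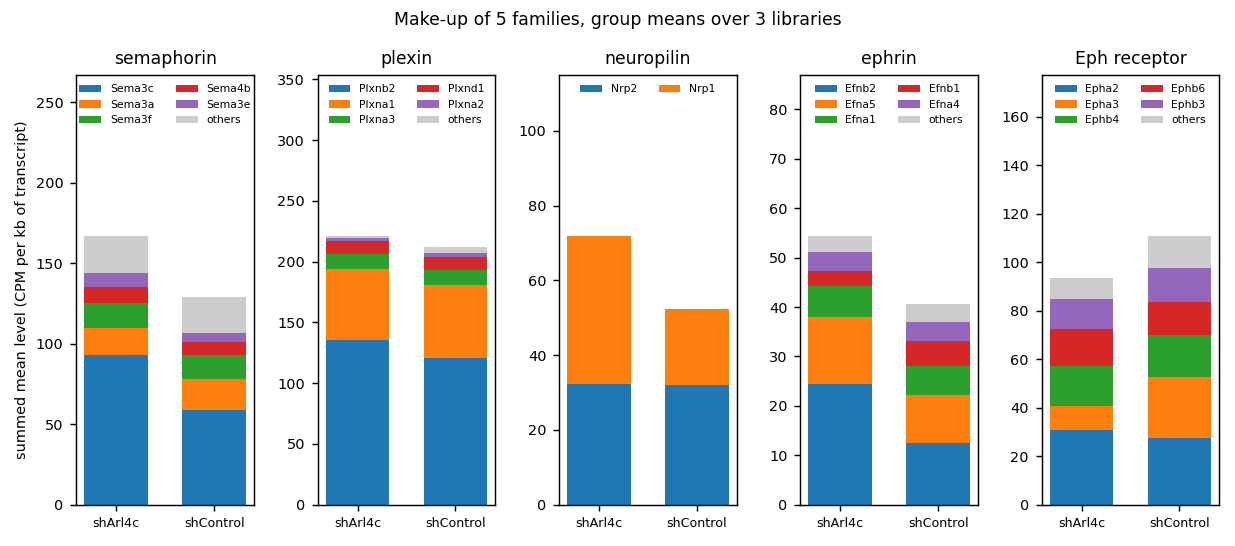
Summed mean level in CPM per kb of the longest coding transcript (y axis, from 0, a different scale in each panel) for 5 families, shArl4c left of shControl; colours are the 5 most abundant members and grey is the sum of the rest. The neuropilin bar is 71.9 in shArl4c and 52.3 in shControl, with the difference lying in the Nrp1 part; the Eph bar is 93.3 in shArl4c and 111 in shControl.

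The Slit2 and Slit3 ligands were abundant, while the Robo1 and Robo2 receptors were at or near the limit of detection. Slit2 stood at 146, 162 and 155 CPM in the shArl4c libraries, against 189, 185 and 195 CPM in the shControl libraries, 1.23-fold lower in shArl4c (log2 fold change -0.29 with SE 0.05, adjusted p = 3.74e-05 by limma). Slit3 stood at 144, 145 and 154 CPM in the shArl4c libraries, against 126, 132 and 137 CPM in the shControl libraries, 1.12-fold higher (log2 fold change 0.16 with SE 0.05, adjusted p = 0.00788 by limma). The groups did not overlap for either gene, as for 46.8% of all tested genes. Of all tested genes 36.9% changed, and so few genes do not describe the family. The call of Slit3 was lost without shControl 1 (adjusted p = 0.0693) or shArl4c 4 (0.0608) and by plain limma (0.0714). Neither Robo1 nor Robo2, neighbouring genes for Slit receptors, passed the filter. Robo1 had 1 read in shArl4c, in library 3, and 32 reads in shControl, where its level was 0.738, 0.7397 and 0.9101 CPM. The ratio of shArl4c over shControl was 0.0315 (exact 95% interval 0.000774 to 0.189, from pooled reads, counting error only). With no filter on low values, limma gave Robo1 a log2 fold change of -0.81 and an adjusted p of 2.79e-05. Robo2 had 1 read in shArl4c and 6 in shControl, a ratio of 0.168 (0.00365 to 1.38).

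All 3 tested netrin genes and both tested Unc5 genes changed, the netrins in both directions and the receptors downward. Of all tested genes 36.9% changed, and so few genes do not describe their families. Unc5b, a netrin receptor known from vessels, stood at 78.7, 73.2 and 79.3 CPM in the shArl4c libraries, against 124, 122 and 125 CPM in the shControl libraries, 1.61-fold lower in shArl4c (log2 fold change -0.68 with SE 0.05, adjusted p = 6.17e-10 by limma). Unc5c, a receptor for repulsion by netrin, stood at 10.3, 12.1 and 10.3 CPM in the shArl4c libraries, against 37.1, 40.4 and 38.6 CPM in the shControl libraries, 3.54-fold lower (log2 fold change -1.74 with SE 0.08, adjusted p = 1.99e-12 by limma). All shArl4c values lay under all shControl values for both receptors. Their sum per length was 14.5, 13.7 and 14.6 CPM per kb in the shArl4c libraries, against 25.02, 24.997 and 25.3 CPM per kb in the shControl libraries, and Unc5b made up 92.1% in shArl4c and 84.02% in shControl of it. Ntn1, the founding netrin, stood at 69.9, 63.5 and 71.8 CPM in the shArl4c libraries, against 56.3, 57.2 and 58.9 CPM in the shControl libraries (log2 fold change 0.25 with SE 0.05, adjusted p = 0.00137 by limma). Ntn4, a netrin that binds laminins of basement membranes, stood at 23.5, 20.1 and 21.7 CPM in the shArl4c libraries, against 14.5, 14.7 and 16.1 CPM in the shControl libraries (log2 fold change 0.50 with SE 0.08, adjusted p = 7.85e-05 by limma). Ntn3 stood at 7.19, 6.22 and 5.28 CPM in the shArl4c libraries, against 10.04, 10.8 and 9.43 CPM in the shControl libraries (log2 fold change -0.62 with SE 0.12, adjusted p = 3.70e-04 by limma). It shares 1.74% of its exon bases on the same strand with Tbc1d24, a gene at a mean of 33.97 CPM. The part of shared bases in the Ntn3 values was not tested. The groups did not overlap for any of these 3 netrin genes, as for 46.8% of all tested genes.

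The 10 guidance genes below the filter were Sema3g, Sema4f, Sema6a, Plxna4, Plxnb3, Epha8, Epha10, Slit1, Robo1 and Robo2. Their means over all libraries ran from 0.0861 to 0.889 CPM. Plxna4, a plexin of axons, had 10 reads in shArl4c and 32 in shControl (ratio 0.315, exact 95% interval 0.138 to 0.657), and Epha8 had 25 reads in shArl4c and 47 in shControl (ratio 0.536, 0.316 to 0.889). With no filter the adjusted p of limma was 0.0170 for Plxna4 and 0.0599 for Epha8. For the remaining ones other than Robo1, the adjusted p with no filter ran from 0.0838 to 0.743, at 7 to 19 reads each over the 6 libraries. Among them Sema6a had 2 reads in shArl4c and 11 in shControl (ratio 0.183, 0.0197 to 0.840), an interval from counting error that leaves out a ratio of 1.

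**Figure D4:**
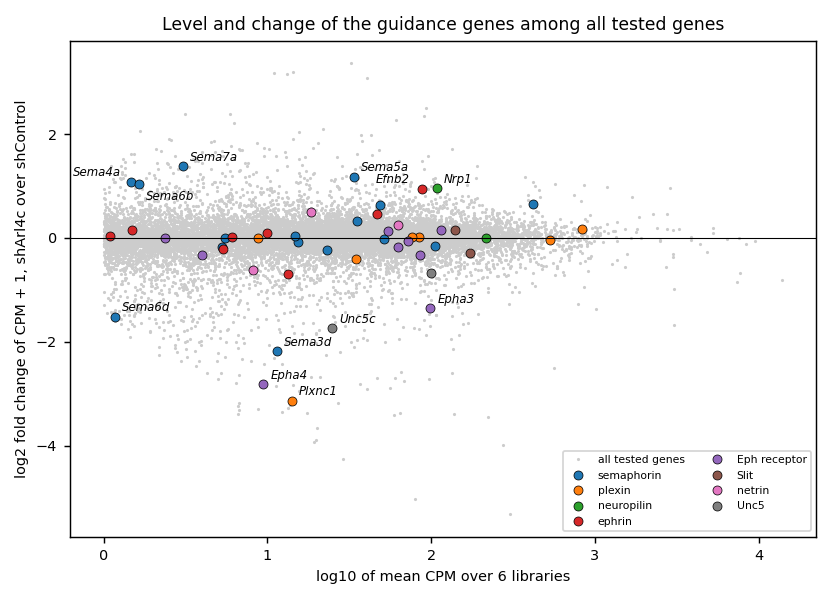
Log2 fold change of CPM + 1, shArl4c over shControl (y axis), against the log10 of the mean CPM over the 6 libraries (x axis) for all 14740 tested genes (grey) and the 49 tested guidance genes (coloured by family). Guidance genes lie between 1.095 and 833 CPM, and the named ones have a log2 fold change of at least 0.9 in size.

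By role, of 29 tested ligand genes, 12 rose, 7 fell and 10 did not pass, and of 20 tested receptor genes, 4 rose, 8 fell and 8 did not pass. The share called was 65.5% for ligands and 60% for receptors, against 36.9% of all tested genes (18.9% higher and 18% lower). Of the 26 ligand genes at 1 CPM or more in both groups, which leaves out Sema4a, Sema6b and Sema6d, 10 rose and 6 fell. The median log2 fold change was 0.05 for ligands and -0.05 for receptors. The difference between ligands and receptors was not tested.

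The genes that act with the guidance receptors were taken from 5 lists, of which 4 are described. Of these 103 genes, 88 were tested, of which 19 rose, 30 fell and 39 did not pass (55.7% called, against 36.9% of all tested genes). With each library scaled to its own total, 26 rose and 27 fell, and by DESeq2 12 rose and 26 fell. Both settings also moved the genes as a whole. Library totals put the median log2 fold change of all tested genes at 0.04 in place of 0.01, and DESeq2 called fewer genes in both directions, as given below. These shifts are therefore no result about the partner genes. The lists were chosen with earlier results of these data known. Of the semaphorin and plexin partners, 4 rose and 11 fell of 23 tested (65.2% called, against 36.9% of all tested genes, median log2 fold change -0.16). Fyn, a kinase that acts after plexin binding, averaged 56.8 ± 3.21 CPM in shArl4c and 116 ± 0.944 CPM in shControl (log2 fold change -1.02, adjusted p = 4.67e-12 by limma), Farp2, an exchange factor bound to plexins, 81.2 ± 1.37 CPM in shArl4c and 139.96 ± 3.501 CPM in shControl (log2 fold change -0.78, adjusted p = 3.66e-11 by limma), and Met, a receptor kinase that pairs with B-type plexins, 109 ± 0.6297 CPM in shArl4c and 69.96 ± 3.37 CPM in shControl (log2 fold change 0.64, adjusted p = 2.54e-09 by limma).

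Of the Slit and Robo partners, 5 rose and 6 fell of 18 tested (61.1% called, against 36.9% of all tested genes). Nell2, a secreted ligand of the Robo3 receptor, averaged 207 ± 11.1 CPM in shArl4c and 62.5 ± 5.25 CPM in shControl (log2 fold change 1.71, adjusted p = 1.90e-12 by limma), and Flrt3, a ligand of Unc5 proteins, 1.29 ± 0.126 CPM in shArl4c and 7.796 ± 1.07 CPM in shControl (log2 fold change -1.93, adjusted p = 2.80e-09 by limma). Srgap3, a GTPase-activating protein that binds Robo, averaged 148 ± 5.25 CPM in shArl4c and 118 ± 2.21 CPM in shControl (log2 fold change 0.32, adjusted p = 6.87e-06 by limma). Of the netrin partners, 3 rose and 6 fell of 13 tested (69.2% called, against 36.9% of all tested genes). Among those that fell, Ntng2 (0.348 CPM in shArl4c, 1.95 CPM in shControl) reached the filter through shControl alone and so had to differ. Mcam, a cell adhesion protein, averaged 1.12 ± 0.0943 CPM in shArl4c and 4.34 ± 0.446 CPM in shControl (log2 fold change -1.33, adjusted p = 9.25e-07 by limma), Dscam, an adhesion protein that can bind netrin, 6.01 ± 0.733 CPM in shArl4c and 13.5 ± 2.18 CPM in shControl (log2 fold change -1.05, adjusted p = 1.29e-06 by limma), and Adora2b, an adenosine receptor, 5.65 ± 0.349 CPM in shArl4c and 2.39 ± 0.4199 CPM in shControl (log2 fold change 0.98, adjusted p = 2.03e-05 by limma).

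Of the Eph and ephrin partners, 6 rose and 3 fell of 19 tested (47.4% called, against 36.9% of all tested genes; at least 2-fold 5.26%, near the 5.43% of all tested genes). Ngef, encoding the exchange factor ephexin that binds the Epha4 receptor, averaged 11.3 ± 0.168 CPM in shArl4c and 3.72 ± 0.717 CPM in shControl (log2 fold change 1.39, adjusted p = 4.11e-08 by limma), which ran opposite to Epha4 itself. Kalrn (-0.45) and Itsn1 (-0.37), exchange factors that act after EphB receptors, fell.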

How the data were processed

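RNA of 6 mDE6 libraries (3 shArl4c, 3 shControl) was sequenced by the study from total RNA with a directional kit, per the labels' protocols. The authors deposited 1 table of CPM values. Trimmomatic 0.38, RSEM 1.3.0, Bowtie2, edgeR and GRCm39 are named in the submitters' processing notes, without settings or order. Every deposited CPM value was a whole multiple of its column's smallest value (100% of values, tolerance 0.001 of a read), which gave back read counts. The smallest total of a listed gene was 6 reads over the 6 libraries. With 0 reads, a level of up to 3 reads (0.202 to 0.248 CPM) is allowed in a library, counting error only.

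Columns named for luciferase were taken as shControl and those with a misspelt Arl4c, numbered 2 to 4, as shArl4c, and no column was tied to a single sample. Of 22032 identifiers, 21880 matched a symbol, 152 did not and 21 shared one with a more abundant gene. Gene types, exon overlaps and transcript lengths came from GENCODE M21 (GRCm38); 3 antisense genes matched by name were left out.

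Log2(CPM + 1) of 14740 genes was fitted with limma 3.58.1 in R 4.3.3 (trend and robust moderation, no covariate). The 0.05 threshold applies to p adjusted over all tested genes. Recovered reads were also tested with edgeR 4.0.16 (2607 genes higher, 2771 lower) and DESeq2 1.42.0 (2000 higher, 2108 lower). Other pseudocounts, filters, scalings, moderation and leaving out each library were tried. The steps were tested on simulated data with the same spread for all genes and no library that stood apart. Fewer genes changed there than in these data, none of them low. That test checks the code only and does not cover the spread of these libraries. The members and lists were chosen with earlier results of these data known. Every tested member could be named, and the 17 called with a log2 fold change of at least 0.5 in size were given per library; other members given per library were picked after their values were seen. Up to 3 called genes of smallest p were named per partner list; 1 of the 5 partner lists enters their total count and is not reported by itself here.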

Additional observations from a re-analysis of the deposited data

How the results depend on the processing

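Of the 31 guidance genes called, 24 kept their direction and call under all alternatives that tested them, among them all 17 with a log2 fold change of at least 0.5 in size. These 17 were picked by the size of their change in the same libraries, so their kept calls are no separate support. They include Sema4a, Sema6b and Sema6d, which reached the filter through 1 group alone. Sema6d kept its call in the 13 alternatives that tested it. The counts for the guidance genes were 12 to 16 higher and 12 to 17 lower over 10 alternatives, and 13 to 16 higher and 12 to 16 lower when 1 library was left out. The count of partner genes that rose moved by more than 1.5 times under 1 alternative, to 12 by DESeq2. Genes that did not pass changed sign close to 0 (log2 fold changes): Epha1 was at -0.00735 with a pseudocount of 0.5 and -0.00217 with median of ratios, Sema3f at 0.015 and Sema6c at 0.021 with library totals. With edgeR, Plxnb1 was at -0.00771, Nrp2 at -0.00509 and Efna4 at -0.00136; Plxnb1 was at -0.00318 with DESeq2. Leaving out 1 library at a time, the ranges that crossed 0 were -0.068 to 0.065 for Plxnb1, -0.00973 to 0.037 for Plxnd1, -0.036 to 0.037 for Efna4, -0.099 to 0.051 for Sema6c, -0.00819 to 0.030 for Nrp2, -0.26 to 0.16 for Epha1, -0.056 to 0.013 for Sema3f, -0.014 to 0.10 for Sema4c, -0.11 to 0.18 for Efna3, -0.017 to 0.29 for Efnb3 and -0.039 to 0.20 for Efna1. The cause of these shifts was not tested. No paired analysis was possible because the columns, numbered 2 to 4 and 1 to 3, could not be tied to the replicate numbers of the sample titles.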
